A study of Mus musculus with 2 samples.

Results

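The 10 genes of fat cell formation and lipid handling described here were followed across 2 single-cell libraries of SkM mesenchyme: Pparg, Cebpa, Lpl, Fabp4, Cd36, Apoe, Apoc1, Plin2, Adipoq and Plin1. They were found by symbol, each symbol matched 1 row in both matrices, and so 10 of 28001 features were described. Both libraries came from Hic1CreERT2/CreERT2;Rosa26LSLtdTomato/tdTomato mice on a C57BL/6J background, in which CreERT2 is expressed from the Hic1 locus and tamoxifen (TAM) leaves a permanent tdTomato label in cells that express Hic1 while TAM is active and in their progeny. In the E10-P56 library TAM was given by gavage to the pregnant dam as 1 dose of 7.5 mg at embryonic day 10, and in the adult pulse library 8-week-old mice received 5 daily injections of 2.5 mg. The labels give postnatal day 56 for the collection of both, whereas another passage of the study gives a later day for the adult pulse. Mice aged 8 weeks at the first of 5 daily injections would be past day 56, so the libraries cannot be taken as matched in age. Tibialis anterior muscles were pooled, tdTomato+ cells were sorted out of a gate negative for blood, immune and endothelial surface markers, and 3′ libraries were made on the 10x Chromium platform. Each labelling time is 1 library. Labelling time, dose and route of TAM, library and Cell Ranger version (5.0.0 in the E10-P56 files, 3.0.2 in those of the adult pulse) change together, and age at collection may change with them. These cannot be told apart, and no test between libraries was possible. All intervals below are 95% intervals of counting error only. Unique molecular identifiers (UMIs) remove most PCR copies but say nothing of variation between mice.

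Fat cells form when mesenchymal precursors switch on a pair of transcription factors that sustain each other, PPARG and C/EBPα, and these then drive the genes for lipid uptake, storage and the secreted adipokines. Lipid handling is not private to fat cells: capillary endothelium and the cells around it take up and pass on fatty acids through CD36 and FABP4, many stromal cells secrete lipoprotein lipase, and apolipoprotein E is made by fibroblasts and glia. In resting muscle fat cells are few, and interstitial fibroblasts, often called fibro-adipogenic progenitors, are known as their source. ADIPOQ and PLIN1, in contrast, are close to restricted to mature fat cells.

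The promoters of 4 genes are shown because they belong to the genes that mark commitment (Pparg, Cebpa) and the genes that mark the finished fat cell (Adipoq, Plin1), which are read together below. Each window runs from 250 bases before to 50 bases after a RefSeq start on GRCm38.p6, 5′ to 3′ on the strand of the gene. The windows are chr16:23146286-23146585 on the + strand for Adipoq, chr7:79732727-79733026 on the - strand for Plin1, chr7:35119043-35119342 on the + strand for Cebpa and chr6:115362099-115362398 on the + strand for the second of 3 Pparg starts, which is shown because it held the most of the motifs searched. Capitals mark TATAAA or its reverse complement and the hexamer AGGTCA, which nuclear receptors such as PPARG bind in pairs.
Adipoq: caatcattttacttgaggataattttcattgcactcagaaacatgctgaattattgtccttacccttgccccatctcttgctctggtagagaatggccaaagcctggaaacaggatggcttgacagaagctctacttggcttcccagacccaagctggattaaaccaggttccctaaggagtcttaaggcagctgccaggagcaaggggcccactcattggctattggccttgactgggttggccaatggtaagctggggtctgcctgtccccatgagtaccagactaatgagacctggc
Plin1: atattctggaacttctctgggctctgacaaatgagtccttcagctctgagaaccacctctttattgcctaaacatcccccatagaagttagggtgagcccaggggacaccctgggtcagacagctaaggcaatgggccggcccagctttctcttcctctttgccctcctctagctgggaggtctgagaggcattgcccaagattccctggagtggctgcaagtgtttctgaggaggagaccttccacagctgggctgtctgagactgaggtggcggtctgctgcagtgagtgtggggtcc
Cebpa: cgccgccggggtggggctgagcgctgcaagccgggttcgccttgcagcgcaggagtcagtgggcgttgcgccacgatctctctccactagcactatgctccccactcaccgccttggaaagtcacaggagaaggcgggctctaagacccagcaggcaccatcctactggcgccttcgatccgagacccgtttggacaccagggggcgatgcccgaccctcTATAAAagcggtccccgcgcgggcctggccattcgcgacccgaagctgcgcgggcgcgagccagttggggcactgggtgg
Pparg, second start: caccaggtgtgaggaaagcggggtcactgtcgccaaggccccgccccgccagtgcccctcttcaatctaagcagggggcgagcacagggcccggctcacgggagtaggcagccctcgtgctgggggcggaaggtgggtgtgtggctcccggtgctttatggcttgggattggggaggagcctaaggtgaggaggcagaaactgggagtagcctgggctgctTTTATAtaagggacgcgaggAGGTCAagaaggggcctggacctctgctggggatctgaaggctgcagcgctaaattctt
For comparison, 4 motifs were searched on both strands: AGGTCA alone, AGGTCA repeated after 1 base of any kind (the DR1 element), the C/EBP palindrome TTGCGCAA and TATAAA, where the first is contained in the second. Over all 32851 RefSeq windows of this length AGGTCA was present in 16.3%, DR1 in 0.0396%, TTGCGCAA in 0.183% and TATAAA in 13.6%. The Cebpa window held TATAAA at bases -30 to -25, and the second Pparg window held TATAAA on the opposite strand at -29 to -24 and AGGTCA at -9 to -4. The first Pparg window held AGGTCA alone and the third held none of the 4. The windows of Adipoq and Plin1 held none either, which says only that these letters are not in this window. Reads from the 3′ end do not tell which Pparg start was used. Windows were found for 7 of the 10 genes, and Lpl, Fabp4 and Apoc1 had none.

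Of 8236 barcodes in the E10-P56 library and 9195 in the adult pulse, 6087 and 8567 were kept (at least 1500 UMIs and at most 10% of UMIs from mitochondrial genes), with medians of 7648 and 7344 UMIs. Clustering without the 10 genes and their pathway gave 15 and 13 clusters. From fixed markers 4243 E10-P56 cells and 7105 adult pulse cells were fibroblast-like. The mural cells, which wrap vessels, were 430 and 390 pericyte-like, 212 and 168 VSMC-like (vascular smooth muscle) and, in E10-P56 alone, 260 SMCP-like cells (smooth muscle cell progenitors). The adult pulse VSMC-like cluster also had the SMCP marker Ifitm1 among its leading genes. The adult pulse had 1 nerve cluster of 204 cells. It passed 6 of 11 Schwann markers, but 4 of its 10 leading genes (Cldn1, Itgb4, Sfrp5 and Tenm2) also lead the E10-P56 perineurial-like cluster and 2 the endoneurial-like one, so it is called the mixed nerve cluster and is not the counterpart of the 140 Schwann-like cells of E10-P56. The libraries shared 15 barcodes, 11 of them among kept cells. Levels are given as CPM, the UMIs of a gene scaled by the summed UMIs of the population, and so fewer cells with a gene and fewer UMIs per cell lower it alike.

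In both libraries 1 fibroblast-like cluster, led by Cxcl13 and Fgf10, held the highest fibroblast level of all 10 genes, except for Apoc1 in the adult pulse. It had 749 E10-P56 cells and 609 adult pulse cells. Against the other fibroblast-like cells, 9 of the 10 genes were over 2-fold higher there in E10-P56, where 3.27% of all genes with at least 100 UMIs were, and 0 were over 2-fold lower (5.1% of all genes). The adult pulse gave 7 of the 8 genes with enough UMIs, against 3.23% of all genes, and again 0 lower, against 6.75%. The median log2 ratio was 4.11 and 3.33 over these genes and -0.08 and -0.19 over all genes. This is a description of clusters and no test. In the other fibroblast-like cells of E10-P56 Pparg, Adipoq and Plin1 had 58, 17 and 9 UMIs, so they passed the filter through this cluster. The same holds in the adult pulse for Pparg, Cd36 and Adipoq (63, 77 and 3 UMIs). Their part in these counts is therefore no support. Apoe leads the cluster in both libraries and Apoc1 and Lpl lead it in E10-P56. These genes were left out when it was formed, but fat cell markers such as Car3 could be used. The cluster is therefore not independent of genes that go with them. Car3, a fat cell marker, is also among the 10 leading genes of the E10-P56 cluster, ahead of any fibroblast marker on the list, while 9 of 14 fibroblast markers passed there and 8 of 14 in the adult cluster.

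**Figure D1:**
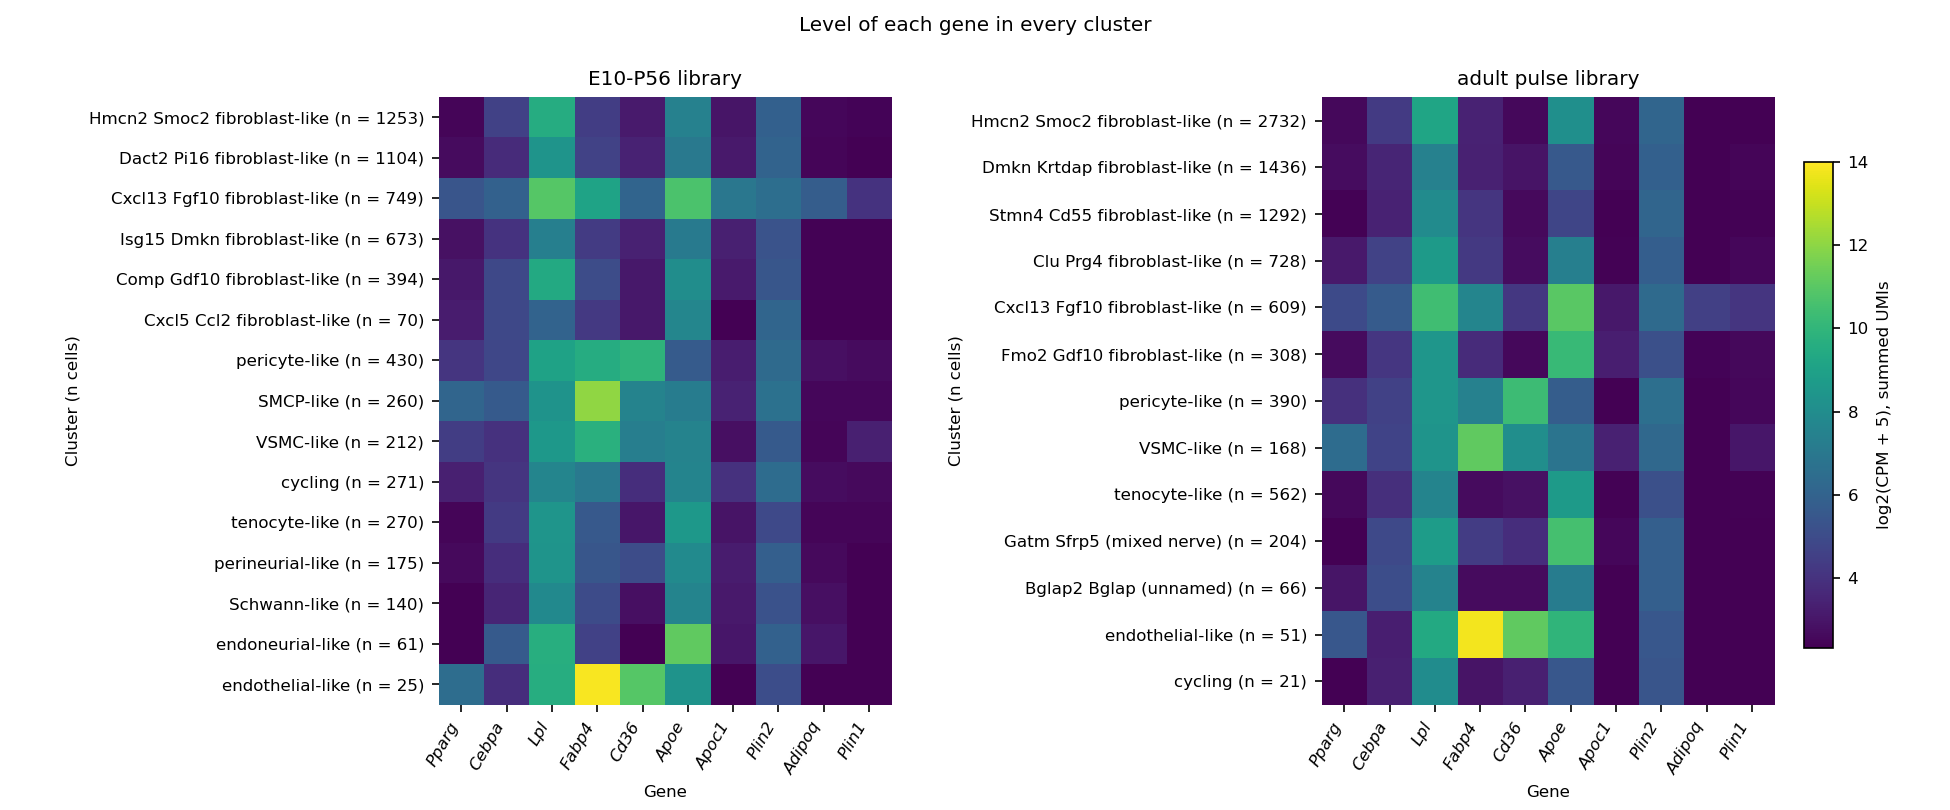
Level of each gene in every cluster of the E10-P56 library (left) and the adult pulse library (right), as log2 of CPM plus 5; rows are clusters with their number of cells and columns are genes. The Cxcl13 Fgf10 row is the brightest fibroblast-like row for most genes, Fabp4 and Cd36 are brightest in the mural-like and endothelial-like rows, and Adipoq and Plin1 are near 0 elsewhere.

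Both transcription factors were higher in this cluster, at low levels. Pparg (chr6:115360951-115490399, + strand, GRCm38), the nuclear receptor that directs fat cell formation, was at 37.4 CPM in the E10-P56 cluster and 1.64 CPM in the other fibroblast-like cells, a ratio of 22.9 (17.3 to 30.7). The adult pulse gave 25.9 and 1.19 CPM, a ratio of 21.8 (16.1 to 29.7). The other fibroblast-like clusters lay between 0.498 and 4.14 CPM in E10-P56 and between 0.240 and 3.65 CPM in the adult pulse, so no other subset came near. When every cell was reduced to 1500 UMIs, Pparg was found in 5.34% of the cluster's E10-P56 cells and 3.28% of its adult pulse cells, against 0.229% and 0.246% of the other fibroblast-like cells (28.7%, 15.1%, 1.35% and 0.954% without reduction). Tenocyte-like cells, taken here as a type that should lack it, had Pparg in 0 of 270 and 0 of 562 cells at 1500 UMIs, with exact upper bounds of 1.36% and 0.654% (0.370% and 0.534% without reduction). The tenocyte-like medians were 4799 and 6597.5 UMIs, those of the cluster 11038 and 9152. Cebpa (chr7:35119293-35121928, + strand), which encodes C/EBPα, was more widely detected and less uneven. Its level was 56.1 CPM in the cluster and 14.3 CPM in the other fibroblast-like cells of E10-P56, a ratio of 3.93 (3.47 to 4.44). The adult pulse values were 46.7 and 11.2 CPM, a ratio of 4.18 (3.60 to 4.83).

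Genes of lipid uptake followed the same order within fibroblasts. Lpl (chr8:68880491-68907448, + strand), the secreted lipase that frees fatty acids from lipoproteins, was present in every fibroblast-like cluster. Its level was 1922 CPM in the Cxcl13 Fgf10 cluster and 413 CPM in the others in E10-P56, a ratio of 4.65 (4.55 to 4.75). Adult pulse levels were 1363 and 381 CPM, a ratio of 3.58 (3.48 to 3.67). The next highest subset in each library was the Hmcn2 Smoc2 cluster, with 751 CPM of 1253 cells in E10-P56 and 578 CPM of 2732 cells in the adult pulse, and the E10-P56 subset with Dact2 and Pi16 had 320 CPM. Lpl was found in 75.0% and 73.1% of the Cxcl13 Fgf10 cells at 1500 UMIs per cell, against 38.9% and 37.1% of the others. Fabp4 (chr3:10204088-10208576, - strand), a fatty acid carrier of the cytoplasm, was at 538 against 18.1 CPM in the first library, a ratio of 29.7 (27.4 to 32.3), and at 195 against 8.37 CPM in the adult pulse, a ratio of 23.3 (20.9 to 26.1). Its UMIs were concentrated in few cells: the 10 richest cells held 64.0% of the cluster's E10-P56 Fabp4 UMIs and 81.9% of its adult pulse ones, whereas 10 cells held 8.82% and 10.3% of the Lpl UMIs. Cd36 (chr5:17781690-17888801, - strand), the fatty acid translocase of the cell surface, was at 62.6 against 4.82 CPM in E10-P56, a ratio of 13 (10.9 to 15.5), and at 13.3 against 1.46 CPM in the adult pulse, a ratio of 9.14 (6.58 to 12.7).

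The apolipoproteins lie side by side on chromosome 7 and behaved differently in the 2 libraries. Apoe (chr7:19696109-19699188, - strand), a lipid carrier of plasma and tissue fluid, was at 1650 CPM in the E10-P56 cluster and 155 CPM in the other fibroblast-like cells, a ratio of 10.6 (10.3 to 11). The adult pulse gave 2090 and 189 CPM, a ratio of 11.1 (10.8 to 11.4). The adult Fmo2 Gdf10 cluster of 308 cells had 1146 CPM, while the Stmn4 Cd55 cluster had 21.9 CPM, so Apoe varied widely among the adult subsets. Among cells of nerve, the 61 endoneurial-like cells of E10-P56 had 2300 CPM and the adult mixed nerve cluster 1483 CPM, and both also carried fibroblast markers (44544 and 61098 CPM when clustered with no mitochondrial limit). The E10-P56 Schwann-like cells, with 11325 CPM of those markers, had 190 CPM of Apoe. Apoc1 (chr7:19689481-19692660, - strand), a small apolipoprotein that restrains lipoprotein uptake, reached 120 CPM in the E10-P56 cluster and 3.81 CPM elsewhere among its fibroblasts, a ratio of 31.6 (26.4 to 38.1). In the adult pulse all fibroblast-like cells held 54 Apoc1 UMIs, and the highest level was the 5.01 CPM of the Fmo2 Gdf10 cluster, above the 3.41 CPM of the Cxcl13 Fgf10 cluster.

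The droplet coat genes did not behave alike. Plin2 (chr4:86648386-86670060, - strand), which coats small droplets in nearly every cell type, was the most even of the 10. Its level was 87.8 against 48.4 CPM in E10-P56, a ratio of 1.81 (1.67 to 1.97), and 77.2 against 60.2 CPM in the adult pulse, a ratio of 1.28 (1.16 to 1.42). Plin1 (chr7:79720218-79732903, - strand), the coat of the large droplet of fat cells, was at 11.5 against 0.254 CPM in E10-P56 (109 against 9 UMIs) and at 12.3 against 0.340 CPM in the adult pulse (72 against 18 UMIs). Adipoq (chr16:23146536-23158028, + strand), the adipokine adiponectin, had 471 UMIs in the E10-P56 cluster against 17 in all the other fibroblast-like cells, and 105 against 3 UMIs in the adult pulse. Nearly all of these Plin1 and Adipoq UMIs came from the same few cells.

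In the E10-P56 library 82 of 8236 barcodes (0.996%) had an Adipoq UMI, and in the adult pulse 10 of 9195 (0.109%). Kept cells accounted for 48 and 10 of them. Most had few UMIs and a small number held many. In E10-P56 18 barcodes had 5 or more Adipoq UMIs and 11 had 10 or more, and in the adult pulse 2 barcodes had 5 or more, with 85 and 11 UMIs. The Cxcl13 Fgf10 cluster held 18 of the 48 kept E10-P56 cells (2.4% of the cluster, 1.43 to 3.77) and 7 of the 10 adult cells (1.15%, 0.463 to 2.35). As a share of cells the E10-P56 value was close to that in Schwann-like cells, 2 of 140 or 1.43%, each with 1 UMI, so a single Adipoq UMI does not by itself mark a fat cell. The level was far apart: 49.6 CPM in the cluster against 1.87 CPM in Schwann-like cells.

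The 18 E10-P56 barcodes with at least 5 Adipoq UMIs carried other fat cell genes with it, though not evenly. The 4 richest had 136, 110, 101 and 62 Adipoq UMIs, with 550, 406, 1317 and 340 Fabp4 UMIs and 19, 19, 21 and 10 Plin1 UMIs. The third had 48352 UMIs in all, 885 of Apoe and 527 of Apoc1. Fabp4, Lpl and Apoe were present in 18 of the 18, Plin1 in 17, Cebpa, Apoc1 and Cd36 in 16 each, Plin2 in 14 and Pparg in 13. The Cxcl13 Fgf10 cluster had 731 cells without Adipoq, at a median of 10989 UMIs. Of these, Lpl was in 690, Apoe in 615, Plin2 in 351, Fabp4 in 265 and Cebpa in 221. Pparg was in 203, Cd36 in 169, Apoc1 in 102 and Plin1 in 4. The presence of Lpl and Apoe therefore sets the 18 barcodes little apart. A list of 10 fat cell markers that are not among the 10 genes (Cidec, Lep, Retn, Aqp7, Adrb3, Pck1, Lipe, Slc2a4, Car3 and Adig) summed to 24781 CPM in these barcodes, of which Car3 alone made up 21550 CPM, and 14 fibroblast markers to 7852 CPM. In 13 of the 18 at least 4 of the markers were found, with 4441 CPM without Car3 and 2769 CPM of fibroblast markers. The other 5 had 1 to 3 markers, almost only Car3 (70.5 CPM without it), and 21144 CPM of fibroblast markers. The 64 barcodes with 1 to 4 Adipoq UMIs were mixed: 27 were fibroblast-like, 13 were of other types and 24 were outside the kept set. Together they had 1047 CPM of fat cell markers and 30289 CPM of fibroblast markers, and Plin1 in 7. Of these 64, 7 had 4 to 6 of the fat cell markers, with 3385 CPM of fibroblast markers, against 32064 CPM in the other 57. Per barcode the median number of fat cell markers detected was 5 of 10 in the first group and 0 in the second, at median depths of 14986 and 4591 UMIs. Of the 8 kept barcodes in the first group 7 lay in the Cxcl13 Fgf10 cluster and 1 in the cycling cluster. The richest adult pulse barcode had 85 Adipoq, 445 Fabp4 and 28 Plin1 UMIs and 7 of the 10 markers.

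**Figure D2:**
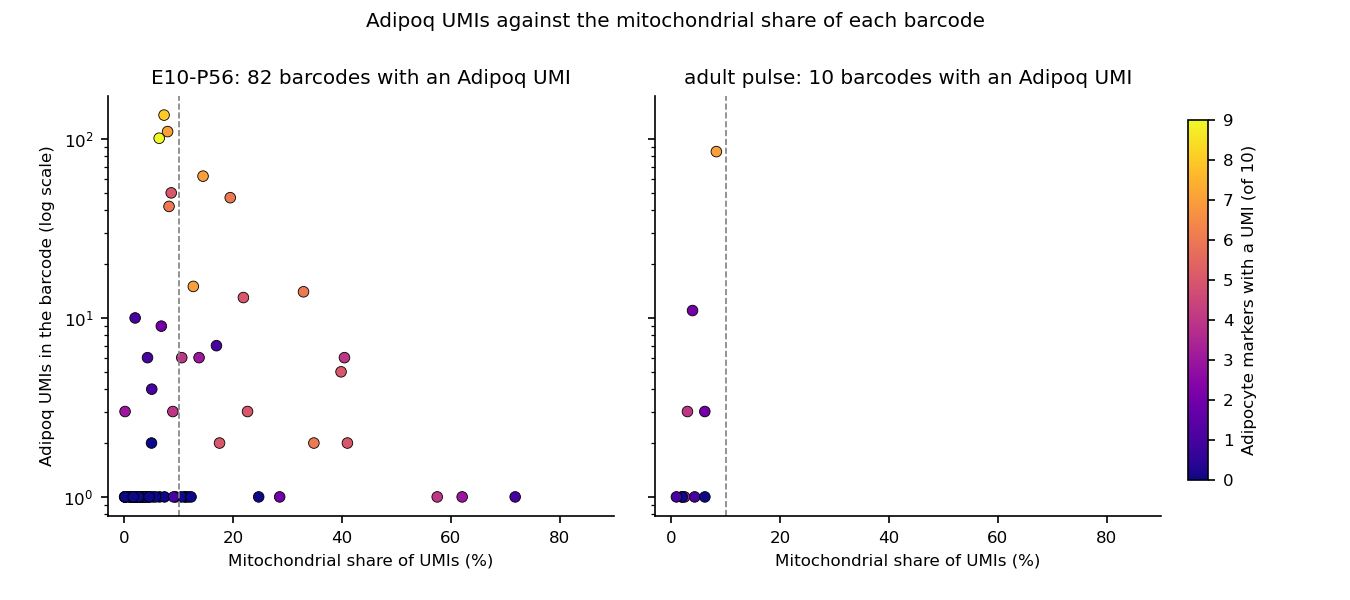
Adipoq UMIs of every barcode with at least 1 (vertical axis, log scale; colour gives the number of 10 fat cell markers detected) against its share of UMIs from mitochondrial genes in percent (horizontal axis), for the E10-P56 library (left) and the adult pulse (right); the dashed line is the 10% limit for kept cells. In E10-P56 10 of the 18 barcodes with 5 or more UMIs lie right of the line, while all 10 adult barcodes lie left of it.

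The mitochondrial limit removed more of these cells than of others in the E10-P56 library. Of its 839 cells over the limit 23 had Adipoq (2.74%), against 48 of 6087 kept cells (0.789%), and all 10 of the left-out barcodes with 5 or more UMIs were over the limit. Of the 163 adult pulse cells over the limit 0 had Adipoq, with an exact upper bound of 2.24%. The E10-P56 interval was 1.75% to 4.09%, so the 2 overlap. Over all 628 left-out barcodes of the adult pulse, which include those under 1500 UMIs, 0 had Adipoq (upper bound 0.586%). With no limit the E10-P56 library gave a separate adipocyte-like cluster of 25 cells, in which 9 of the 10 fat cell markers passed. The mitochondrial share of its cells ran from 0.136% to 71.8% with a median of 19.5%, and 6 of them had been in the kept set. The leading genes were Cfd, Mup11, Hp, Adipoq, Car3, Cyp2e1, Apoc1, Retn, Wfdc21 and Cidec. It held 23 of the 71 cells with Adipoq, 14 of the 18 with 5 or more UMIs and 10 of the 11 with 10 or more, and 4 of its cells had a single Adipoq UMI. Endothelial and macrophage markers summed to 3.46 CPM each in it, and fibroblast markers to 3251 CPM. In the adult pulse no such cluster formed without the limit, and its 4 cells with 2 or more Adipoq UMIs stayed in the Cxcl13 Fgf10 cluster, then of 604 cells.

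In the 25 adipocyte-like cells all 10 genes stood above the Cxcl13 Fgf10 cluster of the same clustering (946 cells). Cells of the cluster had a median of 6 Adipoq UMIs and at most 136, and 23 of 25 had at least 1, a level of 2179 CPM against 2.45 CPM. Plin1 was detected in 19 of 25 cells, at most 21 UMIs, with 602 CPM and 350-fold (222 to 580) the level of the fibroblast cluster. Fabp4 was detected in all 25, with 13116 against 202 CPM, 65.1-fold (61.8 to 68.5), and Apoc1 in 21, with 3898 against 31.8 CPM. Cebpa, at 723 CPM and in 22 cells, was 17.7-fold higher (15 to 20.9), and Pparg, at 135 CPM and in 12 cells, 4.65-fold higher (3.25 to 6.48). Lpl showed the smallest difference, 3130 CPM and 1.99-fold (1.86 to 2.13), followed by Plin2 with 204 CPM and 2.67-fold (2.01 to 3.47). Cd36 (515 CPM, 19 cells) and Apoe (8900 CPM, 23 cells) were 10.7-fold and 6.96-fold higher. These are descriptions of a cluster that Adipoq and Apoc1 help to lead.

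**Figure D3:**
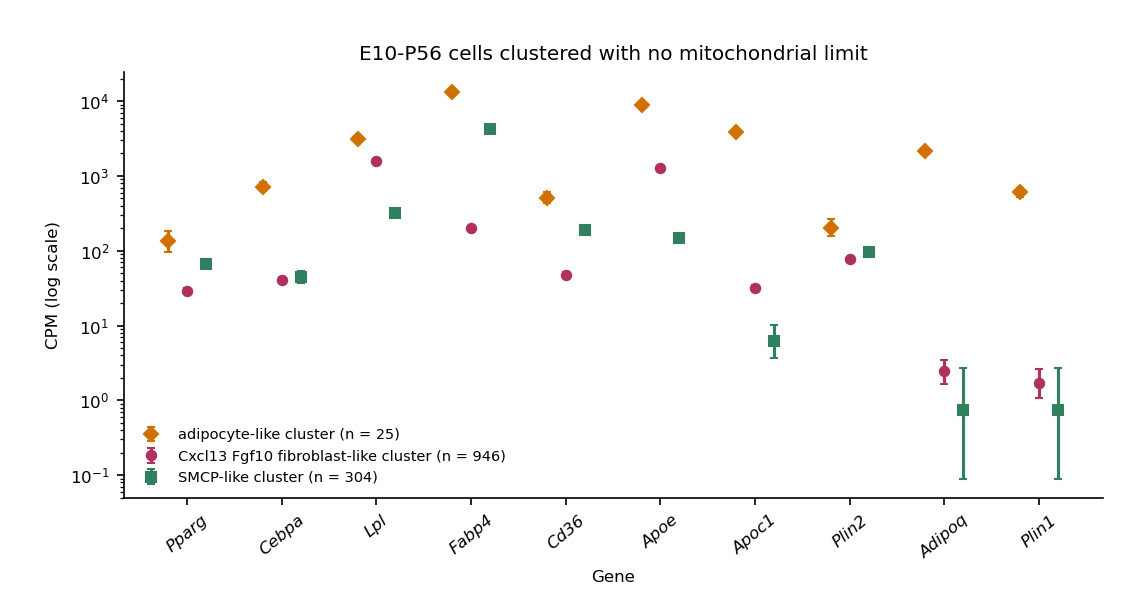
Level of each gene in CPM (log scale) in the 25 adipocyte-like cells, the 946 cells of the Cxcl13 Fgf10 cluster and the 304 SMCP-like cells of the E10-P56 library clustered with no mitochondrial limit; bars are 95% Poisson intervals. The gap between the first 2 is widest for Adipoq (2179 against 2.45 CPM) and narrowest for Lpl.

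Leaving out every cell with an Adipoq UMI showed how much of the fibroblast pattern rested on them. In the Cxcl13 Fgf10 cluster the 18 E10-P56 cells held 96.3% of the Plin1 UMIs, 75.6% of the Apoc1 UMIs and 62.3% of the Fabp4 UMIs, and the 7 adult cells held 97.2%, 40% and 64.5%. Without them Plin1 was left with 4 and 2 UMIs. Apoc1 in E10-P56 was then at 30.3 against 3.82 CPM, a ratio of 7.93 (6.43 to 9.81), and Fabp4 at 209 against 18.0 CPM, a ratio of 11.6 (10.6 to 12.7). Adult Fabp4 was at 70.4 CPM, 8.42-fold (7.34 to 9.66) the level of the others. The transcription factors, Lpl and Apoe moved little. Pparg kept ratios of 20.3 (15.3 to 27.4) and 18.1 (13.3 to 25), Lpl of 4.54 and 3.48 and Apoe of 9.62 and 10.8. Cd36 had an E10-P56 ratio of 11.6 (9.76 to 13.9), while in the adult pulse it went from 13.3 to 8.47 CPM and its ratio from 9.14 to 5.82 (3.98 to 8.44). Without these cells 7 of 8 genes in E10-P56 and 6 of 7 in the adult pulse were over 2-fold higher in the cluster, where 2.87% and 3.19% of all genes were, and 0 were over 2-fold lower, where 5.06% and 6.78% of all genes were. Pparg (58 and 63 UMIs in the other fibroblast-like cells) and adult Cd36 (77 UMIs) still passed the filter only with the cluster's UMIs. Their part in these counts is no support.

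**Figure D4:**
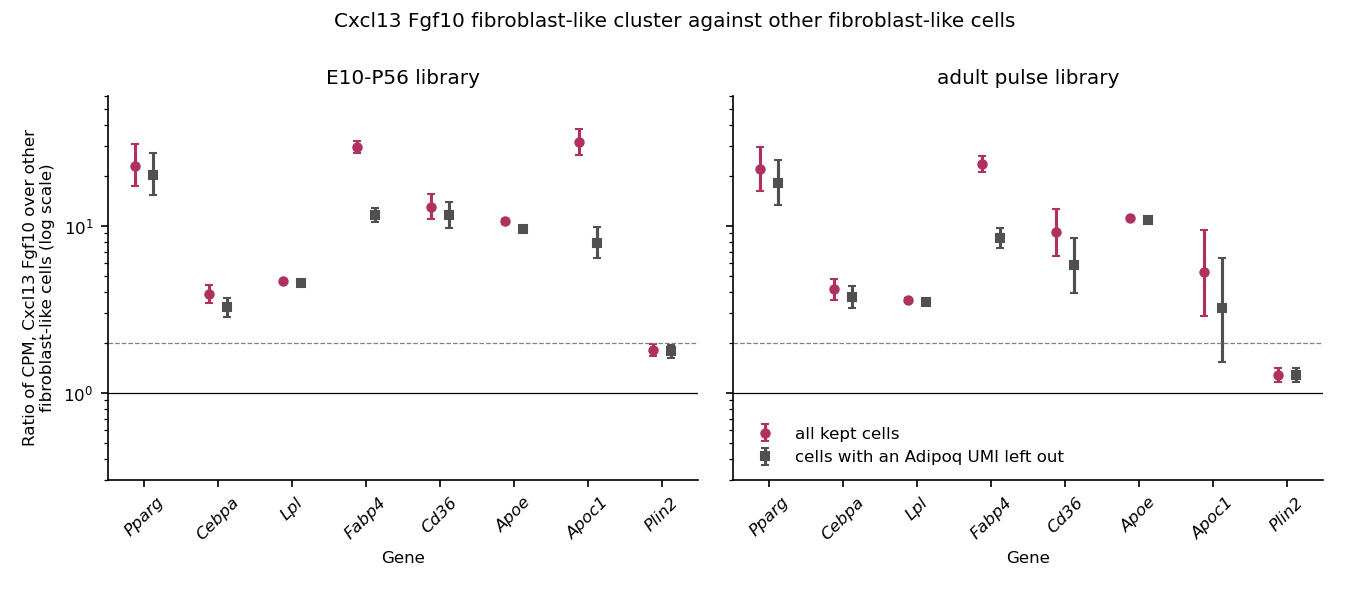
Ratio of the CPM in the Cxcl13 Fgf10 cluster to that in the other fibroblast-like cells (log scale) for 8 genes in the E10-P56 library (left) and the adult pulse (right), with 95% intervals, for all kept cells (circles) and without cells that had an Adipoq UMI (squares); the dashed line marks 2-fold and the solid line no difference. Fabp4 and Apoc1 drop most when these cells are left out, from 29.7 to 11.6 and from 31.6 to 7.93 in E10-P56, and Pparg, Lpl and Apoe drop little.

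Within the cluster, and still without cells with Adipoq, cells with a Pparg UMI were compared with those without one as a description. In E10-P56 203 cells had Pparg and 528 did not. Fabp4 was at 385 and 113 CPM in the 2 groups, Cd36 at 95.3 and 34.1 CPM, Cebpa at 63.0 and 37.3 CPM and Lpl at 2569 and 1502 CPM. The 88 and 514 adult pulse cells gave 113 and 61.4 CPM of Fabp4, 17.9 and 6.49 CPM of Cd36 and 1508 and 1288 CPM of Lpl, while Cebpa was at 45.7 (33.4 to 60.9) and 41.0 (35.5 to 47.2) CPM, intervals that overlap. Apoe went up with Pparg in E10-P56 (1910 and 1270 CPM) and not in the adult pulse (1754 and 2104 CPM). The cells with Pparg were deeper, with medians of 15939 against 9494 UMIs and 11137.5 against 8823 UMIs, and the part of depth in these values was not tested.

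In mural cells the same genes were arranged otherwise: Fabp4 and Cd36 were far above the fibroblasts, Pparg was higher over the class as a whole, and Adipoq was almost missing. Fabp4 was at 2283 CPM in the mural-like and 128 CPM in the fibroblast-like cells of E10-P56, 17.8-fold higher (17.3 to 18.4), and at 988 and 27.0 CPM in the adult pulse, 36.5-fold higher (34.3 to 39.0). Cd36 was at 367 and 17 CPM in E10-P56, 21.6-fold higher (19.9 to 23.5), and at 884 and 2.64 CPM in the adult pulse, 335-fold higher (285 to 397). Pparg was at 36.3 and 9.19 CPM, 3.95-fold higher (3.33 to 4.66), and at 38.5 and 3.66 CPM, 10.5-fold higher (8.16 to 13.5). The mural-like Pparg level of E10-P56 was close to the 37.4 CPM of the Cxcl13 Fgf10 cluster. Fabp4 and Cd36 stayed higher in mural-like cells in both libraries under every alternative that was tried. Pparg kept its direction, but pericyte-like cells of E10-P56 taken alone were 1.36-fold the fibroblast-like level, with an interval (0.811 to 2.15) that includes no difference, against 2.82-fold (1.55 to 4.76) in the adult pulse. Plin1 was low on both sides, with 2.33 CPM in mural-like and 2.63 CPM in fibroblast-like cells of E10-P56 and 1.68 and 1.53 CPM in the adult pulse. Of the fibroblast-like Plin1 UMIs, 109 of 118 in E10-P56 and 72 of 90 in the adult pulse were in the Cxcl13 Fgf10 cluster. The other fibroblast-like cells were at 0.254 and 0.340 CPM, below the mural-like values, which rest on 14 and 4 UMIs.

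In the adult pulse fewer genes were on the fibroblast side, and in E10-P56 the genes on that side were less stable. Apoe was at 471 CPM in fibroblast-like and 133 CPM in mural-like cells of E10-P56, a ratio of 3.53 (3.29 to 3.79), and at 378 and 73.3 CPM in the adult pulse, a ratio of 5.16 (4.45 to 6.03). Apoc1 was at 28.4 and 4.33 CPM in E10-P56, a ratio of 6.57 (4.46 to 10.1), and Adipoq had 488 against 6 UMIs, a ratio of 10.9 (4.96 to 29.8). In the adult pulse Adipoq had 108 against 0 UMIs, a ratio of 1.46 when the mural sum is set to 3 counts, with a lower interval bound of 1.17. Adult Apoc1 was not on the fibroblast side, with 0.919 CPM against 2.09 CPM in mural-like cells (54 and 5 UMIs). Lpl was 1.89-fold (1.81 to 1.97) and 1.42-fold higher in fibroblast-like cells, and Cebpa and Plin2 were within 1.5-fold in both libraries. In all, 3 of 10 genes were over 2-fold higher in the fibroblast-like cells of E10-P56 and 3 lower, where 12.7% and 12.2% of all genes were, and in the adult pulse 1 of 8 was higher and 3 lower, against 12.6% of all genes in each direction. In E10-P56 Apoc1 and Adipoq, with 26 and 6 UMIs in mural-like cells, passed the filter through the fibroblast-like cells. Their part in the count is therefore no support. The E10-P56 values for Apoe, Apoc1 and Adipoq rest on the Cxcl13 Fgf10 cluster: under 4 alternatives (at least 3000 UMIs, a limit of 5% mitochondrial UMIs, finer clustering, or both libraries clustered together) between 3.74% and 7.34% of its cells were still called fibroblast-like and the rest were left unnamed. Adipoq was then lower in fibroblast-like cells, by 0.53 to 1.16 on the log2 scale.

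**Figure D5:**
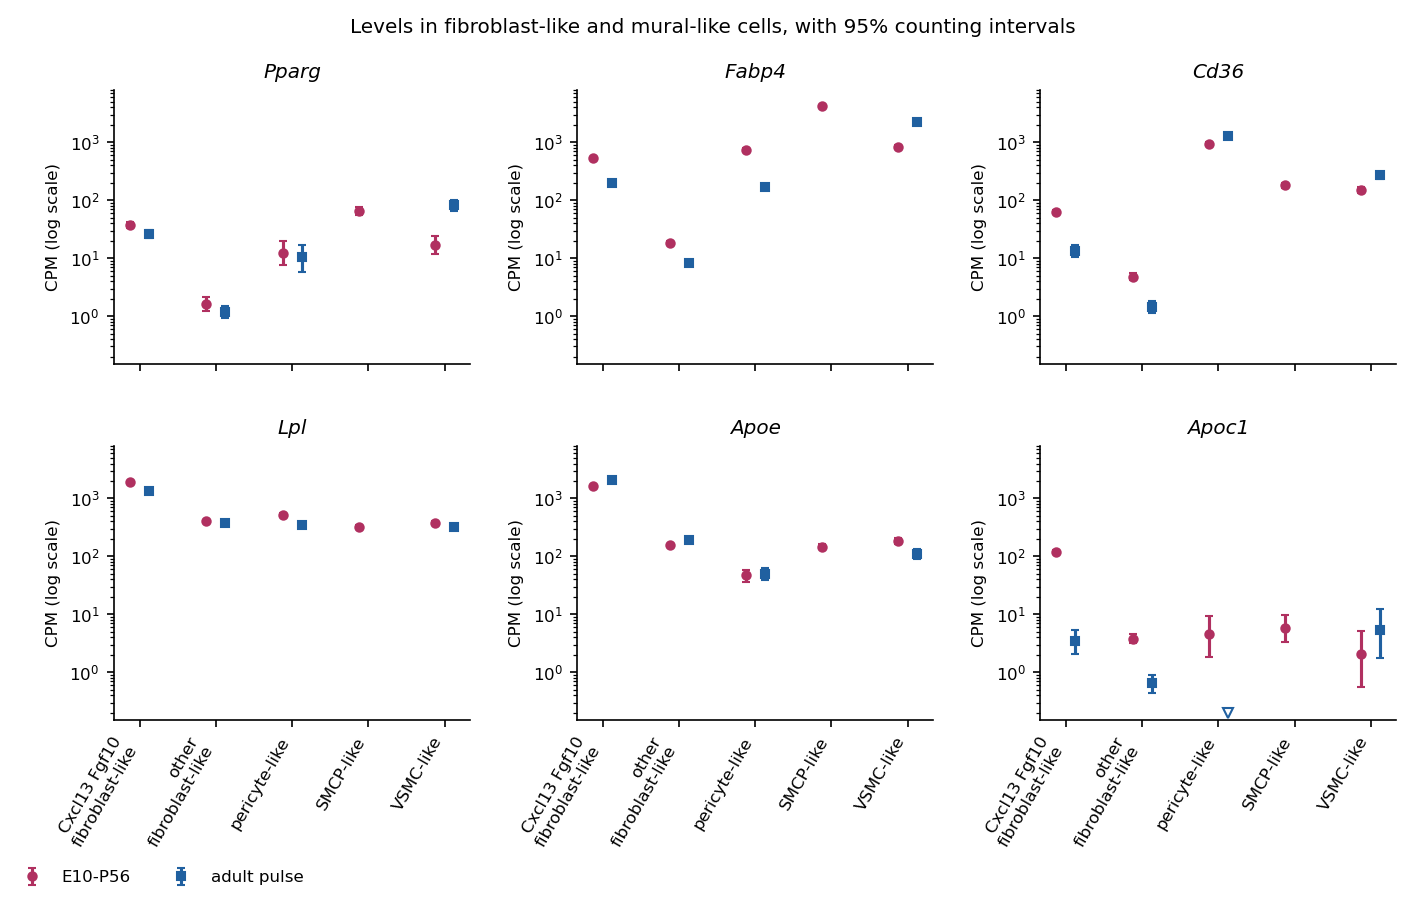
Level of 6 genes in CPM with 95% Poisson intervals (log scale) in the Cxcl13 Fgf10 cluster, the other fibroblast-like cells and each mural type of the E10-P56 library (circles) and the adult pulse (squares); an open downward triangle marks a population with 0 UMIs of the gene. Cd36 is highest in pericyte-like cells, Fabp4 in SMCP-like cells of E10-P56 and VSMC-like cells of the adult pulse, and Lpl and Apoe in the Cxcl13 Fgf10 cluster.

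Each mural type had its own profile. Pericyte-like cells, which sit on capillaries, had the most Cd36 of the mural types, at 952 CPM in E10-P56 against 1279 CPM in the adult pulse, with Cd36 in 74.2% and 79.2% of cells at 1500 UMIs per cell (88.1% and 95.1% without reduction), against 0 of 270 and 0 of 562 tenocyte-like cells (upper bounds of 1.36% and 0.654%). VSMC-like cells had 153 and 269 CPM, so that pericyte-like cells were 6.23-fold (5.49 to 7.07) and 4.76-fold (4.17 to 5.45) higher. SMCP-like cells had the most Fabp4 of the E10-P56 mural types, at 4307 CPM against 749 CPM in pericyte-like cells, a ratio of 5.75 (5.41 to 6.12), with Fabp4 in 85.8% of cells at 1500 UMIs (91.2% without reduction) against 1.43% of Schwann-like and 5.93% of tenocyte-like cells. Pparg followed Fabp4 there, with 65.5 against 12.5 CPM, a ratio of 5.23 (3.25 to 8.91), and Apoe was at 147 against 46.8 CPM, a ratio of 3.14 (2.43 to 4.10).

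The VSMC-like cells of the 2 libraries differed in the same pair of genes. Fabp4 was at 847 CPM in E10-P56, close to the pericyte-like level (1.13-fold, 1.05 to 1.22), and at 2261 CPM in the adult pulse, 13.4-fold (11.7 to 15.3) the pericyte-like level of 169 CPM. Pparg was at 16.9 CPM in E10-P56, and at 82.4 CPM in the adult pulse, where it was 7.99-fold (4.55 to 15) the pericyte-like level. The adult cluster is the one with the SMCP marker Ifitm1, and no separate SMCP-like cluster was found in that library, so these VSMC-like clusters need not hold the same cells. In 4 of the 5 mural populations Fabp4 was higher in cells with a Pparg UMI, such as 5788 against 3350 CPM in the 90 and 170 SMCP-like cells of E10-P56, and 5960 against 980 CPM in the 44 and 124 VSMC-like cells of the adult pulse. The SMCP-like cells with Pparg were deeper (medians of 10520.5 and 7595.5 UMIs) and the adult VSMC-like ones were not (4959.5 and 5055.5 UMIs). The exception was the E10-P56 pericyte-like cells, with 836 (653 to 1054) CPM in 18 cells with Pparg and 744 (700 to 790) CPM in 412 without.

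Some mural values came from very few cells. In the E10-P56 VSMC-like cells 93.0% of the Apoe UMIs and 63.1% of the Lpl UMIs were in 10 of 212 cells, and a single cell held 318 of the 728 Lpl UMIs. Endothelial cells, which passed the gate as 25 and 51 endothelial-like cells, had the highest Fabp4 of all (14930 and 14397 CPM) and 1908 and 2297 CPM of Cd36, and they had Pparg at 85.9 and 40.1 CPM. Markers of endothelium summed to 233 to 437 CPM in the mural types, against 7546 and 10772 CPM in endothelial-like cells, and Esam, a gene that mural cells also express, made up 177 to 358 CPM of that. The same values were taken over the mural cells with none of the 12 endothelial markers. Cells of that kind were shallower, most of all the SMCP-like ones (median of 3126 against 8776.5 UMIs). The 35 SMCP-like cells of that kind had 4759 CPM of Fabp4 and 107 CPM of Pparg (58.3 to 179, from 14 UMIs), and the pericyte-like cells (125 and 96) had 959 and 1484 CPM of Cd36. The E10-P56 VSMC-like value of Fabp4 was lower in such cells, 445 CPM in 55 cells, the adult VSMC-like value was 1917 CPM in 52 cells, and the adult pericyte-like value was higher, 291 CPM in 96 cells. Cd36 and Lpl were also lower in such VSMC-like cells of E10-P56 (69.0 against 153 CPM and 138 against 372 CPM). In such SMCP-like cells both were higher (236 against 182 CPM and 487 against 318 CPM).

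Genes of the wider pathway were counted from a list of 94 with a row of their own. Between fibroblast-like and mural-like cells, 23 of 83 tested were over 2-fold higher in fibroblast-like cells of E10-P56 and 13 lower, where 12.7% and 12.2% of all genes were, and in the adult pulse 19 and 11 of 77, where 12.6% of all genes were in each direction. These shares are the background of each group that follows. Regulators of fat cell formation went both ways, with 6 higher (26.1%) and 4 lower (17.4%) of 23 in E10-P56 and 4 (17.4%) and 5 (21.7%) of 23 in the adult pulse. Uptake and transport genes gave 8 (38.1%) and 5 (23.8%) of 21, then 8 (42.1%) and 5 (26.3%) of 19. Genes of the lipid droplet and of lipolysis were near the background, with 0 higher and 2 lower of 12 and then 1 and 1 (9.09% each) of 11. Genes of lipid synthesis gave 4 (19.0%) and 1 (4.76%) of 21 and then 3 and 0 of 20, and genes tied to fat tissue 5 and 1 of 6 and then 3 and 0 of 4. The 5 include Cfd, whose level in the E10-P56 fibroblast-like cells rested largely on cells with Adipoq, as given below.

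Pathway genes past 4-fold in the same direction in both libraries are described by size, up to the 6 largest on each side. The share of all genes past 4-fold was not taken, so their number on each side is not read. Wnt10b and Slc27a3, and in the adult pulse Lcn2, passed the filter through the fibroblast-like cells. Their part in the pathway counts above is no support. For the other genes of those counts this is not given here. Dlk1, which encodes the preadipocyte factor that holds back fat cell formation, was higher in the mural-like class. Its levels were 246 against 5.36 CPM in E10-P56 (45.9-fold, 40.1 to 52.9) and 51.1 against 3.96 CPM in the adult pulse (12.9-fold, 10.3 to 16.1). In E10-P56 Dlk1 was among the 10 leading genes of the SMCP-like cluster and not of the pericyte-like or VSMC-like cluster. The class value therefore need not hold for each mural type. Fabp5, a fatty acid carrier related to Fabp4, was 17.1-fold (15.6 to 18.7) and 5.66-fold higher in mural-like cells. The lipoprotein receptor Scarb1 was 8.15-fold and 8.12-fold higher there, and Cav2, a caveolar coat gene, 7.05-fold and 5.45-fold. On the fibroblast side Wnt10b, a Wnt ligand that opposes fat cell formation, had 154 UMIs in E10-P56 against 0 in mural-like cells, 6.86-fold higher when the mural sum is set to 3 counts, and 241 against 1 in the adult pulse. Apod, a lipocalin, was at 672 against 64.1 CPM and 698 against 102 CPM. The fatty acid transport protein gene Slc27a3 was 7.85-fold (4.73 to 14.1) higher in E10-P56, with 454 against 1 UMI in the adult pulse. The secreted proteins Serpina3n (14-fold and 9.01-fold), Lcn2 (21.7-fold in E10-P56, 172 against 1 UMI in the adult pulse) and Wisp2 (7.94-fold and 13.5-fold) were the other 3 that were named by size.

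Within fibroblasts a smaller part of the wider pathway than of the 10 genes was higher in the Cxcl13 Fgf10 cluster. In E10-P56 10 of 82 pathway genes (12.2%) were over 2-fold higher there and 4 (4.88%) lower, against 3.27% and 5.1% of all genes. Without cells with Adipoq 4 of 79 (5.06%) were higher and 4 lower, against 2.87% and 5.06%, so the E10-P56 counts were then near the background. The adult pulse gave 9 (11.7%) and 5 (6.49%) of 77, against 3.23% and 6.75% of all genes, and then 7 (9.09%) and 5 of 77, against 3.19% and 6.78%. Cfd, adipsin, shows what the Adipoq cells carried: it was at 853 CPM in the E10-P56 cluster against 8.52 CPM in the other fibroblasts, and at 5.87 against 8.50 CPM once they were left out. The 4 that remained in E10-P56 were Plin4 (6.64-fold, 4.92 to 9.03), the phospholipid transfer protein gene Pltp (3.44-fold, 3.01 to 3.92), Slc27a1 (3.35-fold, 2.47 to 4.55) and Fabp5 (2.82-fold, 2.38 to 3.35). Of these, Plin4 and Slc27a1 passed the filter only with the cluster's UMIs, so their part in this count is no support. Pltp was also higher in the adult cluster (3.09-fold, 2.72 to 3.51), as was Angptl4, a secreted inhibitor of LPL (5.04-fold, 4.53 to 5.60). The others over 2-fold higher in the adult cluster were Cebpb, Dlk1, Wisp2, Apod and Serpina3n. Dlk1, which holds back fat cell formation, was thus higher in that cluster, unlike Wnt10b. Wnt10b was lower in the Cxcl13 Fgf10 cluster of both libraries, with 1 UMI against 153 and 5 against 236. Mgll, the lipase of the last step of fat breakdown, was at 17.2 against 108 CPM and 16.8 against 65.5 CPM without cells with Adipoq.

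Levels across clusters paired some of the 10 genes and not others. As a description, with no p, Pearson r of log2 levels was taken over the 14 and 12 clusters with at least 50 cells, which share a library, for 8815 genes with at least 500 UMIs in each. The cut left out the E10-P56 endothelial-like cluster (25 cells) and the adult cycling cluster (21 cells). It kept the adult endothelial-like cluster (51 cells), so the r values of the 2 libraries come from unlike sets of clusters. Fabp4 and Cd36 were alike (r = 0.87 and 0.88), and the genes closest to Cd36 were Esam (0.91 and 0.99), Tspan12 (0.91 and 0.96) and the pericyte gene Rgs5 (0.91 and 0.93). The closest to Fabp4 were Tspan12, Cd36 and Esam. Lpl was closest to Acvr2a, an activin receptor gene (0.90 and 0.82), then to Arnt and Gphn. Cebpa was closest to Fah (0.76 and 0.77), Fgfrl1 and Snai1, Apoe to Jun (0.76 and 0.83), Ier2 and Cyp1b1, and Plin2 to Ywhag (0.69 and 0.90), 2610002M06Rik and Tank. Apoe and Cd36 were not alike (-0.37 and 0.0042). Pparg, Apoc1, Adipoq and Plin1 had under 500 UMIs in at least 1 library and were not compared.

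Between the libraries the Cxcl13 Fgf10 clusters were set side by side, although they need not hold the same cells. When both libraries were clustered together, 91.9% of the E10-P56 cluster's cells went to 1 joint cluster and 94.9% of the adult cluster's cells to another. In the E10-P56 cluster 4 of 10 genes were over 2-fold higher than in the adult cluster, where 3.98% of all genes were, and 0 were over 2-fold lower, where 2.37% were. They were Apoc1 (120 and 3.41 CPM, 35.3-fold, 22.7 to 58.0), Cd36 (62.6 and 13.3 CPM, 4.71-fold, 3.71 to 6.04), Adipoq (49.6 and 17.9 CPM, 2.77-fold, 2.24 to 3.46) and Fabp4 (538 and 195 CPM, 2.75-fold, 2.58 to 2.94). Apoc1 and Cd36, with 20 and 78 UMIs in the adult cluster, passed the filter through E10-P56, so their part in this count is no support. Without cells with Adipoq the ratios of Apoc1, Cd36 and Fabp4 were 14.6 (8.23 to 28.6), 6.58 (4.90 to 9.01) and 2.97 (2.67 to 3.32). Apoe went the other way, 1650 and 2090 CPM, a ratio of 0.789 (0.771 to 0.808). Apoc1, Cd36 and Fabp4 were also higher in the other fibroblast-like cells of E10-P56, by 5.93-fold, 3.31-fold and 2.16-fold. There 3 of 8 genes were over 2-fold higher and 0 lower, where 4.2% and 4.74% of all genes were. Apoc1 and Cd36 again passed the filter through E10-P56, with 34 and 77 UMIs in the adult pulse. Fabp4 was 4.42-fold (3.85 to 5.10) higher in pericyte-like cells (749 and 169 CPM). Cd36 went the other way in mural cells: it was 2.41-fold lower in mural-like cells of E10-P56 (367 and 884 CPM), a class that holds SMCP-like cells in that library alone, and its ratio in pericyte-like cells was 0.745 (0.695 to 0.798).

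Over all fibroblast-like cells 5 of 10 genes were over 2-fold higher in E10-P56 and 0 lower, where 4.49% and 4.53% of all genes were: Pparg (2.51-fold), Fabp4 (4.73-fold), Cd36 (6.46-fold), Apoc1 (30.9-fold) and Adipoq (5.91-fold). Apoc1, with 54 UMIs in the adult pulse, passed the filter through E10-P56, and its part in the count is no support. Pparg was over 2-fold higher in the class only. Within the Cxcl13 Fgf10 cluster its ratio was 1.44 (1.19 to 1.76). In the other fibroblast-like cells it was 1.37 (0.945 to 1.995), an interval that includes no difference. The cluster made up 749 of 4243 fibroblast-like cells in E10-P56 and 609 of 7105 in the adult pulse. The class ratio of Pparg therefore also carries this difference in mix. The values for the class depend on which clusters are counted as fibroblasts. In 4 fibroblast-like clusters, the E10-P56 Cxcl13 Fgf10 and Comp Gdf10 clusters and the adult Clu Prg4 and Dmkn Krtdap clusters, the 10 leading genes held 1 marker of another cell type and 0 of the fibroblast list. Leaving them out removes the Cxcl13 Fgf10 cluster, which held most UMIs of Pparg, Fabp4 and Adipoq, from E10-P56 alone. That of the adult pulse stays in, so lower ratios for these genes are built into the choice and are no support. Without these 4 clusters 1 of 9 genes was over 2-fold higher and 4 were lower, where 5.07% and 6% of all genes were, and Pparg, Fabp4 and Adipoq had log2 ratios of -1.54, -1.02 and -2.37. The list of fat cell markers moved with them: it summed to 744 CPM in the E10-P56 cluster and 166 CPM in the adult cluster (Car3 662 and 142 CPM), to 220 and 26.5 CPM without cells with Adipoq, and to 13.6 and 16.7 CPM in the other fibroblast-like cells. Of its 10 genes 0 were at 0 in the E10-P56 cluster and 1, Aqp7, in the adult cluster. The part of these cells' RNA in the values of other cells was not tested.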

How the data were processed

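Single-cell RNA from 2 libraries was analysed from the filtered matrices that the authors deposited, which hold raw UMI counts per gene and barcode made with Cell Ranger (per the file headers, 5.0.0 made the E10-P56 matrix and 3.0.2 the adult pulse matrix; mm10, per the submitters' processing notes). Totals were 67460919 and 69153173 UMIs over 28001 features. Barcodes with under 1500 UMIs (1310 and 465) or over 10% mitochondrial UMIs (839 and 163) were left out, and doublets were kept. Each library was clustered alone (2000 variable genes without the 10 genes and 94 pathway genes, 30 principal components, 20 neighbours, Leiden resolution 0.5; Python 3.11.15, scikit-learn 1.9.0, leidenalg 0.10.2). A cluster was given a type, written X-like, when at least 3 markers of its list were in 10% of its cells at a log2 fold of 1; after the data were seen, 50% of the list was also required for types other than fibroblasts. By this rule the adult nerve cluster was Schwann-like; it was called mixed after its leading genes were seen. The 10 genes, the lists and the tests were chosen with earlier results of these data known.

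Levels are CPM of summed counts with exact Poisson 95% intervals, ratios have exact conditional binomial intervals and shares Clopper-Pearson intervals (scipy 1.17.1). With 1 library per labelling time no test was made. A fold of 2 and at least 100 UMIs over both populations set which genes were counted, against all genes by the same rule. A sum of 0 was set to 3 counts over the group to give a ratio. Shares of cells were taken at 1500 UMIs per cell. Pathway genes were named when past 4-fold between fibroblast-like and mural-like cells in the same direction in both libraries, up to the 6 largest per direction, together with genes singled out after their values were seen (Cfd, Plin4, Pltp, Slc27a1, Angptl4, Mgll, Cebpb). Apoc2 had more than 1 row and Cebpd was not analysed here. Positions are from GENCODE M21 on GRCm38 and promoters from RefSeq. The steps were tested on simulated data. Alternatives covered the UMI minimum, the mitochondrial limit, doublet scores (scanpy's Scrublet), clustering, naming, the mural class and the scaling.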

Additional observations from a re-analysis of the deposited data

Results flagged for a closer look

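Among the E10-P56 barcodes outside the kept set, 10 had at least 5 Adipoq UMIs, a signal in cells that the comparisons of kept cells do not use. In the adult pulse 0 of 628 such barcodes had an Adipoq UMI. The 10 barcodes were all over the mitochondrial limit.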

How the results depend on the processing

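No paired analysis was possible because each labelling time is 1 library and no result comes from a test. Pparg, Fabp4 and Cd36 were lower in fibroblast-like than in mural-like cells in both libraries under every alternative run, with log2 ratios from -4.69 to -0.45, -7.06 to -2.55 and -6.59 to -4.09 in E10-P56 and from -3.61 to -1.50, -6.09 to -2.65 and -8.92 to -8.27 in the adult pulse. The interval of Pparg in E10-P56 includes no difference when pericyte-like cells alone are the mural class. The number of genes past 2-fold between the libraries in fibroblast-like cells went from 5 to 2 with 3000 UMIs, 1 with a 5% mitochondrial limit, 3 at resolution 1.0 and 3 with both libraries clustered together. That between fibroblast-like and mural-like cells of E10-P56 went from 6 to 3 at resolution 1.0 and 3 when clustered together. E10-P56 barcodes with Adipoq went from 48 to 82 over all deposited barcodes. Several E10-P56 log2 ratios of fibroblast-like to mural-like cells changed direction: Adipoq to -0.53 (3000 UMIs), -1.16 (5% limit), -1.07 (resolution 1.0), -0.73 (together), -0.45 (each cell named by its own markers) and -1.01 (without clusters led by markers of another list), Apoe to -0.070 (together) and Apoc1 to -0.47 (together) and -0.19 (without those clusters). Between libraries Pparg went to -0.81 (3000 UMIs), -0.80 (5% limit), -0.96 (resolution 1.0), -1.54 (together) and -1.54 (without those clusters), Fabp4 to -0.33, -0.50 and -1.02 (3000 UMIs, resolution 1.0, without those clusters) and -0.0067 (together), and Adipoq to -1.86, -0.53, -1.92 and -2.37 (3000 UMIs, no mitochondrial limit, resolution 1.0, without those clusters). Plin1, not past 2-fold in the main run, changed direction too. It went from 0.17 to as low as -3.41 between fibroblast-like and mural-like cells of E10-P56, and from 0.78 to -2.95 between libraries. Under 3000 UMIs, the 5% limit, resolution 1.0 and joint clustering, most cells of the E10-P56 Cxcl13 Fgf10 cluster were no longer called fibroblast-like. Of the adult cluster's cells 97.9% to 100% still were. Leaving out clusters led by markers of another list likewise removed the E10-P56 cluster alone. Between-library values under these settings therefore compare unlike sets of cells. Of the adult pulse ratios 94 of 129 moved by less than their counting interval, of the E10-P56 ratios 41 of 129 and between libraries 47 of 119. Leaving out the clusters, the cells with Adipoq and the mural cells with an endothelial marker was chosen after the data were seen. Shares of cells moved with depth: without reduction 7 of 60 stayed within their interval and at 3000 UMIs 17 of 60. Depth limits Adipoq, Plin1 and adult Apoc1 most.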
